A study of Homo sapiens with 12 samples.

Results

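The genes followed across the arrays were MRAP2, CHRNA1, NSMF, CAVIN3, PRKCH, MYBPC2 and RFTN1. They are 7 of 18404 genes with an array row of 1 symbol, and were chosen by their signal, which differed about 2-fold or more between L-428 cells with and without EBF1, and because they belonged to no other gene family described for this study. The 7 genes took up 8 rows, since RFTN1 had 2. The values that chose them are the L-428 contrast, which is therefore given here as a description with no test.

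L-428 and L-1236 are established cell lines from Hodgkin lymphoma, a B-cell lymphoma whose tumour cells have lost much of their B-cell expression programme. EBF1 is a transcription factor that B-cell development requires. Each line was transduced with tGFP-only, a vector for the green fluorescent protein tGFP, or with tGPF-IRES-EBF1 (spelled so in the labels), which adds EBF1 to it, and tGFP-positive cells were sorted after 8 days of culture. Each line gave a control group (tGFP) and an EBF1 group (tGFP/EBF1), and the 4 groups had 3 arrays each from samples described as independent. The control cells carry the tGFP vector too, the promoter of the vector is not given in the sources used here, and each line stands for 1 tumour. Signals are log2 values of bulk RNA, so that more cells with a transcript and more transcript per cell cannot be told apart.

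The 7 genes encode proteins known mostly from tissues outside the lymphoid system, with exceptions. MRAP2 is an accessory protein that modulates melanocortin receptors. CHRNA1 is the acetylcholine-binding subunit of the muscle nicotinic receptor. CAVIN3 is a coat protein of caveolae, the flask-shaped pits of the plasma membrane. NSMF carries signals from NMDA receptors at synapses to the nucleus of neurons. MYBPC2 binds myosin in fast skeletal muscle. PRKCH, the eta form of protein kinase C, is activated by diacylglycerol and is present in T cells as well as epithelia, and RFTN1 (raftlin) is a lipid raft protein first known from B cells. The name non-lymphoid therefore does not describe RFTN1 and PRKCH, and the genes are called here by how they were chosen.

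EBF1 binds DNA as a dimer at a near-palindromic site, and the sequence upstream of the genes was set beside the array values for that reason. RefSeq promoter windows (build GRCh38.p14, 250 bases before to 50 after a gene start) were matched for 5 of the 7 genes, with 2 windows for MRAP2. CAVIN3 and MYBPC2 had none. The full palindrome, which is the core CCCNNGGG with a T before and an A after it, was in 0 of the 6 windows and in 1.21% of 35116 windows of the same length. The core alone, which reads the same on both strands, was in 3 of the 6 windows against 19.1% of all. The 3 windows were rich in G and C, as the core is (66.3% to 74.3%, with a median of 58.7% over all windows). No background of like composition was used. The windows with the core were the second of MRAP2 and those of PRKCH and RFTN1. They are printed here 5′ to 3′ up to the base before the start, with the core in capitals.
MRAP2 (chr6:84033869-84034118, plus strand): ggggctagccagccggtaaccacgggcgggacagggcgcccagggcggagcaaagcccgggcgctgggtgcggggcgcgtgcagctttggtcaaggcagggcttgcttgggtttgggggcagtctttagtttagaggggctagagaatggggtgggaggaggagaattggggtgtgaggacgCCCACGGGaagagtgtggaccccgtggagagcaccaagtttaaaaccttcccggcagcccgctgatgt
PRKCH (chr14:61321329-61321578, plus strand): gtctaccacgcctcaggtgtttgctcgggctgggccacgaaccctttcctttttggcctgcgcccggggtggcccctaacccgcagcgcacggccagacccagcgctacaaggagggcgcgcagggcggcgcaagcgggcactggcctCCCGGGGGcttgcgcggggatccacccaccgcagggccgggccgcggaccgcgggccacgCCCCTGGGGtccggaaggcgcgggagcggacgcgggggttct
RFTN1 (chr3:16513700-16513949, minus strand): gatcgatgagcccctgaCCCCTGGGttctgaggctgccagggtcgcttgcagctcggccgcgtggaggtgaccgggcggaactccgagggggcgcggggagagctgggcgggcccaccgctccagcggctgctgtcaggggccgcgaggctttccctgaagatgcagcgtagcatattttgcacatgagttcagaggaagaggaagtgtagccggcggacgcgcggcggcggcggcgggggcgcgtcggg
Counted from the start, the site of MRAP2 begins at -68 and that of RFTN1 at -233. PRKCH holds 1 at -102 and an overlapping pair at -42 and -41. A longer form, the core with at least 1 of these flanking bases, was in the windows of MRAP2 and PRKCH and in 8.86% of all windows. PRKCH was higher and RFTN1 lower with EBF1 in L-428, so genes with the same core letters lay on both sides of 0.

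The windows of NSMF and CHRNA1 carried other letters, which were chosen after the sequences had been read. NSMF had TGACGTCA, the palindrome named the cyclic AMP response element, at -79 and -29, and 1.85% of all windows hold it. CHRNA1 had the E-box CAGGTG, searched on both strands, at -56, letters that 20.6% of all windows hold and that PRKCH also held at -237. They are in capitals here.
NSMF (chr9:137459335-137459584, minus strand): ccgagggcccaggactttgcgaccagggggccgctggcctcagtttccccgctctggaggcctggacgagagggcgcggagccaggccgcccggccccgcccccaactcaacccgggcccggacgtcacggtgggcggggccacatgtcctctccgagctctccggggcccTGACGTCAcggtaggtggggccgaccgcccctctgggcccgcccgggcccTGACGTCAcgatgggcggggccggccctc
CHRNA1 (chr2:174764473-174764722, minus strand): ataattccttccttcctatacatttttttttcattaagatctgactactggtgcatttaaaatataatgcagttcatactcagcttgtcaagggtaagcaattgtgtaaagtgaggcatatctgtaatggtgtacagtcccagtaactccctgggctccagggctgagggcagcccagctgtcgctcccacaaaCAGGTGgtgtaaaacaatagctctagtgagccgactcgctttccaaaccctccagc
The windows also differed in base composition. CHRNA1 had 47.3% G and C and 3 CpG pairs in 300 bases. The other 5 windows had 66.3% to 77.7% and 24 to 38 CpG pairs, against medians of 58.7% and 14 over all windows. A match of letters is a description of the sequence and not of binding.

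The transduced gene and the cell lines were checked first. EBF1 signal was 8.45 ± 0.16 in L-428 tGFP, 12.96 ± 0.027 in L-428 tGFP/EBF1, 7.17 ± 0.057 in L-1236 tGFP and 13.15 ± 0.11 in L-1236 tGFP/EBF1 (mean ± SD, n = 3), and both EBF1 groups lay above every control array. Its row is annotated with PDGFRB as well. All 10 Hodgkin/Reed-Sternberg marker genes lay above 7.87, the mean over all values tested, in at least 1 group, and TNFRSF8 (CD30) was at 10.38 in L-428 and 9.57 in L-1236 controls. CCL22 was below that mean in L-428 controls (7.07), and TRAF1 in both L-1236 groups (7.43 in controls and 7.31 with EBF1). Of 9 B-cell markers 6 lay below that mean in every group. The others were PAX5 and CD22, at 9.51 and 8.91 in L-1236 controls, and CD79A, at 8.19 in L-1236 with EBF1. A pair of arrays had a narrower spread of values than the others of their group, replicate 3 of L-428 tGFP and replicate 1 of L-1236 tGFP/EBF1, with interquartile ranges of 2.28 against 2.47 and 2.49, and of 2.17 against 2.31 and 2.26. On the first of these 6 of the 7 genes lay below their group mean, by a median of 0.091 over the 7, and values without both arrays are given where they bear on a result.

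The first comparison is the one that chose the genes, EBF1 against tGFP in L-428. In all, 5 were higher and 2 lower with EBF1, by 1.02 to 1.88 on the log2 scale in size, and in all 7 the 3 EBF1 arrays lay apart from the 3 control arrays. Of all 20546 rows tested, 0.0973% were past both limits of the design text, an adjusted p of 0.05 and a 2-fold change (0.0779% higher and 0.0195% lower). Groups did not overlap in 18.3% (11.3% higher and 6.98% lower). These shares are background to a choice made on this contrast.

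MRAP2, the melanocortin receptor accessory protein, had the largest rise of the 7. Its signal was 6.62, 6.63 and 6.72 on the L-428 control arrays and 8.61, 8.42 and 8.37 on the EBF1 arrays. The groups were 1.65 apart at their nearest arrays, and the means differed by 1.81 ± 0.067 (SE), or 3.51-fold. The control values lay below the medians of those arrays (7.19 to 7.30), no background signal was used here, and the fold may be a lower limit. CHRNA1, the nicotinic receptor subunit, was at 7.71, 7.56 and 7.59 in controls and at 8.75, 8.62 and 8.77 with EBF1. The difference was 1.09 ± 0.066, or 2.13-fold, with every EBF1 array higher.

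CAVIN3, the caveolar coat protein, was at 8.32, 8.33 and 8.19 in L-428 controls and at 9.44, 9.38 and 9.33 with EBF1. That is 1.10 ± 0.096, or 2.14-fold, with a gap of 0.99 between the groups. The raft protein RFTN1 went the other way, from 9.24, 9.25 and 9.03 to 8.07, 8.20 and 8.18, a difference of -1.02 ± 0.068 or 2.03-fold lower. Control replicate 3 was the lowest of the controls for both genes. The second RFTN1 row was dim and flat, with group means between 6.26 and 6.44 in the 4 groups, so the RFTN1 values here come from the brighter row.

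Of the signalling genes, PRKCH was at 7.31, 7.33 and 7.27 in L-428 controls and at 8.46, 8.29 and 8.30 with EBF1, higher by 1.05 ± 0.071 or 2.07-fold. NSMF, the synapse-to-nucleus messenger, was higher with EBF1 as well. It went from 8.94, 9.05 and 8.68 to 10.12, 10.09 and 9.95, a difference of 1.16 ± 0.081 or 2.24-fold, and its controls had the largest SD among the 7 genes in L-428 (0.19). MYBPC2, the myosin-binding protein, was at 10.41, 10.55 and 10.29 in L-428 controls. With EBF1 it was 8.52, 8.57 and 8.52, a fall of 1.88 ± 0.071 on the log2 scale or 3.68-fold, with 1.72 between the nearest arrays.

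**Figure D1:**
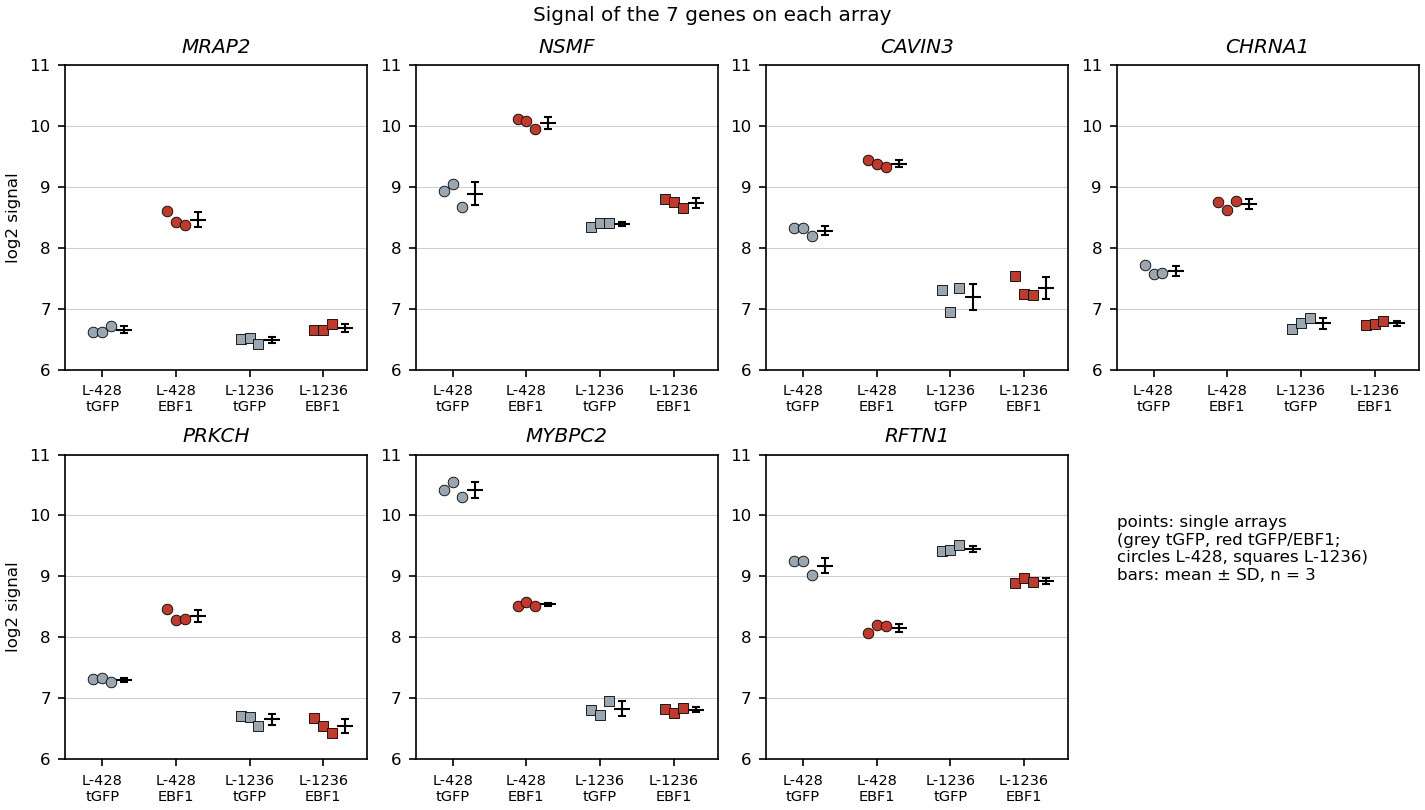
Log2 signal (y axis) of the 7 genes on each of the 12 arrays by group (x axis), with the mean ± SD of 3 arrays beside the points. In L-428 the EBF1 arrays stand apart from the controls for every gene, whereas in L-1236 the groups are apart for MRAP2, NSMF and RFTN1 and overlap for the other 4.

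RFTN1 and PRKCH sat close to the 2-fold limit. The smallest falls past it were GCSAM (-1.01) and RFTN1 (-1.02), and the nearest falls short of it were MFGE8 (-0.76) and ITGAL (-0.74). The smallest rises past it were LGALS3BP (1.01) and CCL22 (1.03), and the nearest short of it were MKNK2 (0.99) and CDC20B (0.98). After quantile normalization RFTN1 was at -0.98 and PRKCH at 1.00, just under the limit (0.998). RFTN1 was also short of it without replicate 1 or 2 of L-428 tGFP (-0.99 each) or replicate 1 of L-428 tGFP/EBF1 (-0.98), and PRKCH without the last of these (0.99). Without control replicate 3 the L-428 differences ranged from -1.94 for MYBPC2 and -1.10 for RFTN1 to 1.84 for MRAP2, with NSMF at 1.06.

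The second comparison was EBF1 against tGFP in L-1236, whose arrays had no part in the L-428 change that chose the genes. They may have had a part in the exclusion of genes in other families, since those include EBF1 responders of L-1236. A strong change in L-1236 could thus have removed a gene, and the count at 2-fold is a description. The fit also shared its estimate of the spread with the L-428 arrays. RFTN1 fell and NSMF rose there, both in their L-428 direction and by less, an order of sizes that the choice by L-428 change favours. MRAP2, CAVIN3, PRKCH, CHRNA1 and MYBPC2 did not pass the adjusted p. So 2 of 7 passed, 1 in each direction, where 9.64% of all rows passed (3.69% higher and 5.95% lower), and 0 of 7 reached 2-fold as well, where 0.146% did (0.0876% higher and 0.0584% lower). Groups did not overlap for 3 of 7 genes against 26.7% of all rows (11.6% higher and 15.1% lower). The median of the 7 was -0.00066 and that of all rows 0.0080.

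RFTN1 was at 9.41, 9.43 and 9.51 on the L-1236 control arrays and at 8.89, 8.98 and 8.90 on the EBF1 arrays. Every EBF1 array was lower, by at least 0.43. The change was -0.52 ± 0.068 (SE), with a 95% interval of -0.67 to -0.38, or 1.44-fold lower (limma, adjusted p = 3.55e-05). It passed under all 23 alternatives, at adjusted p-values of 3.13e-10 to 0.000657. Its size was 51.3% of that in L-428, the value that chose the gene, and such a choice favours a smaller share.

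NSMF was at 8.35, 8.41 and 8.42 in L-1236 controls and at 8.81, 8.76 and 8.65 with EBF1. All 3 EBF1 arrays were higher, the nearest by 0.24. It rose by 0.35 ± 0.081, with an interval of 0.18 to 0.52, or 1.27-fold (limma, adjusted p = 0.00832), and passed under all 23 alternatives with adjusted p-values up to 0.0413. The change in L-1236 was 29.9% of that in L-428, a share that the choice by the L-428 value likewise favours to be small.

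MRAP2 lay just beyond the threshold. It was at 6.50, 6.52 and 6.43 in L-1236 controls and at 6.65, 6.65 and 6.75 with EBF1, so that the groups did not overlap and were 0.13 apart. The difference was 0.20 ± 0.067 (limma, adjusted p = 0.0679), with an interval of 0.061 to 0.34. It passed after quantile normalization (adjusted p = 0.0323), without replicate 3 of L-428 tGFP (adjusted p = 0.0405), without replicate 1 of L-428 tGFP/EBF1 (adjusted p = 0.0482) and without both arrays of narrower spread (adjusted p = 0.0428), all by limma. All 6 values were below the medians of their arrays.

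The other 4 genes had overlapping groups in L-1236. CAVIN3 was at 7.30, 6.95 and 7.34 in controls and at 7.54, 7.24 and 7.22 with EBF1, a difference of 0.14 with an interval of -0.065 to 0.34 (limma, adjusted p = 0.481). Its L-1236 SDs (0.21 and 0.18) were the largest of the 7 genes in that line. PRKCH was at 6.71, 6.69 and 6.54 against 6.67, 6.54 and 6.43 with EBF1, a difference of -0.10 with an interval of -0.25 to 0.046 (limma, adjusted p = 0.467). CHRNA1 differed by -0.00066 with an interval of -0.14 to 0.14 (limma, adjusted p = 0.997), from 6.67, 6.77 and 6.85 to 6.73, 6.75 and 6.81. MYBPC2 differed by -0.021 with an interval of -0.17 to 0.13 (limma, adjusted p = 0.918), from 6.80, 6.73 and 6.95 to 6.83, 6.76 and 6.83. Because the L-428 effect chose the genes, the difference between the lines is a value without a test. It ran from 0.50 (RFTN1) to 1.86 (MYBPC2) in size and was 1.61 for MRAP2, 1.15 for PRKCH, 1.09 for CHRNA1, 0.96 for CAVIN3 and 0.82 for NSMF.

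EBF1 itself was measured on the same arrays. The EBF1 arrays of L-1236 had 0.19 more EBF1 signal than those of L-428, and the gain over controls was 5.97 in L-1236 against 4.51 in L-428. Its part in the difference between the lines was not tested.

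**Figure D2:**
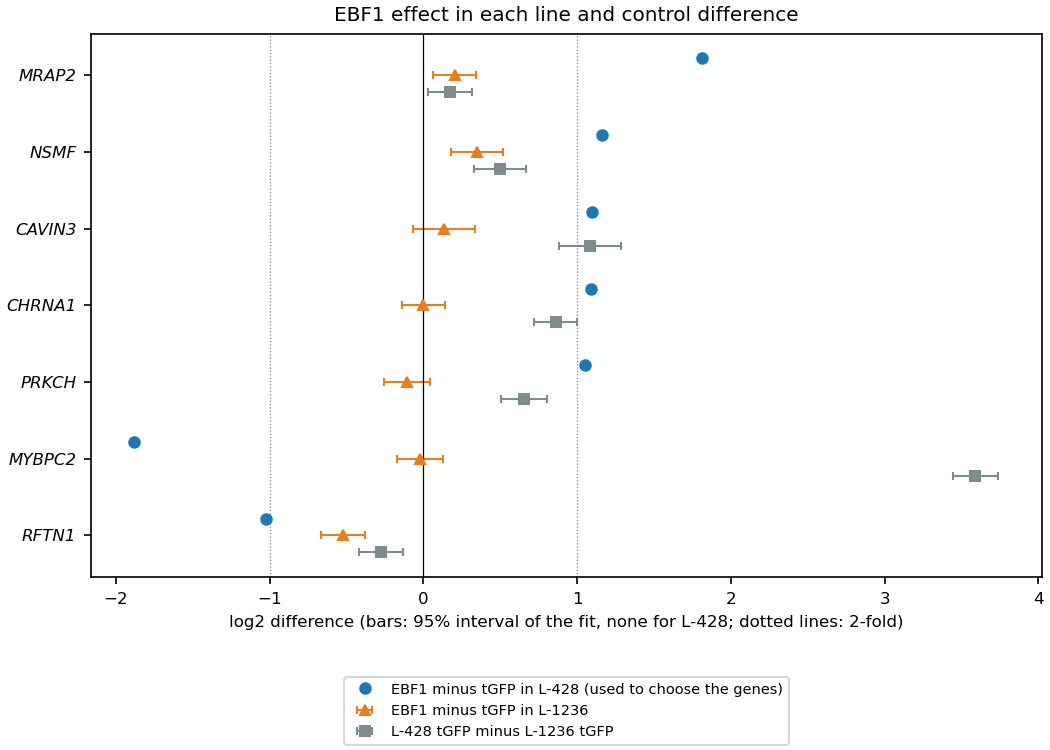
Log2 difference (x axis) of each gene (y axis) for EBF1 minus tGFP in L-428 and in L-1236 and for L-428 tGFP minus L-1236 tGFP; bars are 95% intervals of the limma fit, and none is drawn for the contrast that chose the genes. The L-1236 triangles of RFTN1 (-0.52) and NSMF (0.35) passed the adjusted p, while the control difference of MYBPC2 (3.59) is the largest of all values shown.

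The third comparison was between the control cells, L-428 tGFP minus L-1236 tGFP. It shares the L-428 control arrays with the contrast that chose the genes. Of the 7 genes, 6 were higher in L-428 and RFTN1 was lower, and all 7 passed the adjusted p, against 47.9% of all rows (26.1% higher and 21.7% lower). MYBPC2 and CAVIN3, 2 of 7, also reached 2-fold, against 7.2% of all rows (4.16% higher and 3.04% lower). The 2 groups of control arrays did not overlap for any of the 7, nor for 52.8% of all rows (28% higher and 24.8% lower).

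MYBPC2 had by far the largest control difference, 3.59 ± 0.071 or 12.0-fold (limma, adjusted p = 5.42e-18). Its L-1236 values lay below the medians of their arrays, so the fold may be a lower limit. CAVIN3 was 2.12-fold higher in L-428 (1.08 ± 0.096, limma, adjusted p = 1.29e-08), CHRNA1 1.82-fold (0.86 ± 0.066, limma, adjusted p = 1.88e-09) and PRKCH 1.57-fold (0.65 ± 0.071, limma, adjusted p = 2.24e-07). NSMF was higher by 0.50 ± 0.081 (limma, adjusted p = 3.31e-05) and RFTN1 lower by 0.27 ± 0.068 (limma, adjusted p = 0.00213). These 6 differences passed under all 23 alternatives. MRAP2 was higher by 0.17 ± 0.067 (limma, adjusted p = 0.0426), a call lost without any 1 of the 6 control arrays or replicate 2 of L-428 tGFP/EBF1 (limma, adjusted p up to 0.149, without replicate 3 of L-1236 tGFP).

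The order of the 4 groups set the genes apart. For CAVIN3, CHRNA1 and PRKCH both L-1236 groups were lowest and overlapped, L-428 controls came next and L-428 with EBF1 was highest, with no overlap at the last 2 steps. With EBF1 the lines were 2.05 (CAVIN3), 1.95 (CHRNA1) and 1.81 (PRKCH) apart, more than in controls. A choice of genes by their L-428 change favours such a widening where that change is a rise. MRAP2 was low in 3 groups, where L-428 controls and L-1236 with EBF1 overlapped, and high only in L-428 with EBF1, 1.78 above the next group. For NSMF the L-1236 EBF1 arrays overlapped the L-428 controls and lay above the L-1236 controls. MYBPC2 kept a higher signal in L-428 with EBF1 than in either L-1236 group, by 1.71 over the L-1236 controls. RFTN1 had no overlapping neighbours and was ordered L-428 with EBF1, L-1236 with EBF1, L-428 control and L-1236 control from low to high.

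Rows whose values over the 12 arrays were most like each gene were named by Pearson correlation among 3995 rows with an SD of at least 0.3, as a description. The 12 points fall into 4 groups, which set most of each value. CHRNA1 was most like AFF2 (r = 0.997), the chemokine gene CXCL9 (r = 0.991) and BMP6 (r = 0.989). The same 3 genes were nearest to PRKCH, with CXCL9 first (r = 0.994), and AFF2 was nearest to CAVIN3 (r = 0.992), followed by TAAR6 and PLAAT4. In L-428 AFF2 was higher with EBF1 by 0.90, BMP6 by 0.89 and CXCL9 by 1.65, and in L-1236 they differed by 0.042, 0.011 and -0.082. NSMF and MRAP2 shared LGALS3BP (r = 0.986 and 0.979), which was higher by 1.01 in L-428 and by 0.22 in L-1236, and EML5. WDFY3 was nearest to MRAP2 (r = 0.988) and CDC20B second to NSMF (r = 0.985).

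The falling genes had other company. MYBPC2 was most like PRKCB (r = 0.987), the beta form of protein kinase C, then EEF1A2 and CRIP1 (r = 0.984 and 0.983). PRKCB was lower by 0.60 with EBF1 in L-428 and 1.57 higher in L-428 than in L-1236 controls. RFTN1 was most like SMC6 (r = 0.907), a subunit of the SMC5/6 chromosome complex, NFE2L3 (r = 0.903) and RNF19B (r = 0.881). These were lower with EBF1 in both lines, SMC6 by 0.61 in L-428 and 0.85 in L-1236, and NFE2L3 by 0.48 and 0.68. Among the 7 genes, CHRNA1, PRKCH and CAVIN3 correlated with each other at 0.981 to 0.987 and MRAP2 with NSMF at 0.962, over the same 12 arrays. The remaining pairs of these rising genes were at 0.883 (CAVIN3 and MRAP2) to 0.942 (NSMF and PRKCH). All of them were chosen for their change in L-428, which favours high values among the risers.

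The relatives of each gene were looked up in 9 lists of 161 symbols, of which 148 had a row. With EBF1, 5 rose and 3 fell in L-428 cells, or 5.41% against 4.34% of all rows (2.62% higher and 1.72% lower). In L-1236, 10 rose and 3 fell, or 8.78% against 9.64% of all rows (3.69% higher and 5.95% lower). More relatives rose than fell there, whereas more of all rows fell than rose. The medians of the 148 were -0.0017 and 0.048, beside 0.0037 and 0.0080 over all rows. Most relatives thus did not pass in either line.

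The receptor genes had few moving relatives. The melanocortin list of 12 genes also holds GHSR, PROKR1 and PROKR2, receptors outside that system. None of the 12 passed in L-428 or L-1236 (limma, with 1 unadjusted p under 0.05 in each line). MRAP, the accessory protein of the ACTH receptor, was at 0.17 (limma, adjusted p = 0.315) and 0.068 (limma, adjusted p = 0.694). MC4R, the receptor that MRAP2 is best known to modulate, was at 6.37 in L-428 and 6.51 in L-1236 controls, below the array medians. Of 14 nicotinic receptor subunits, CHRNB4 rose by 0.43 (limma, adjusted p = 0.000645) and CHRNA6 fell by 0.32 (limma, adjusted p = 0.00904) in L-428, and none passed in L-1236 (limma; 3 had an unadjusted p under 0.05). The CHRNA6 call was lost after median centring and without replicate 2 or 3 of L-428 tGFP/EBF1 (limma, adjusted p up to 0.062). The subunits that join CHRNA1 in muscle, CHRNB1 (0.075), CHRND (-0.042), CHRNE (-0.017) and CHRNG (-0.00082), did not pass in L-428. None of 11 cholinergic synapse genes passed in either line (limma; 1 had an unadjusted p under 0.05 in each), with ACHE at -0.28 in L-428 (limma, adjusted p = 0.0874) and BCHE at 0.24 in L-1236 (limma, adjusted p = 0.0763).

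Among membrane scaffold genes, most of those listed with CAVIN3 did not pass in either line. Of 13 cavin, caveolin and caveola coat genes, 1 passed in L-428 and 2 in L-1236, all higher. EHD1, a membrane-shaping ATPase, was 0.33 higher in L-428 cells with EBF1 (limma, adjusted p = 0.00844; 0.0555 without replicate 3 of L-428 tGFP/EBF1) and by 0.74 in L-1236 (limma, adjusted p = 7.85e-07). CAV1, the main caveolin, rose by 0.89 in L-1236 (limma, adjusted p = 2.08e-06), from 9.79 to 10.68, and differed by 0.042 in L-428 (limma, adjusted p = 0.948), where the control mean was 11.85. CAVIN1 (-0.053) and CAVIN2 (0.028) did not pass in L-428, nor did they in L-1236 (0.12 and -0.0072), and their group means were at most 6.77. The lipid raft list had 17 genes, of which L-428 had 3 up and 1 down and L-1236 had 3 up. PAG1, a raft adaptor that recruits the kinase CSK, rose by 0.50 and 0.51 (limma, adjusted p = 0.000161 and 4.96e-05), where RFTN1 was lower in both lines. In L-428 FYN rose by 0.33 (limma, adjusted p = 0.00531). TLR3, the RNA sensor that RFTN1 is known to help take up its ligand, rose by 0.34 (limma, adjusted p = 0.0335), a call lost under 7 alternatives. These were median centring, testing of every row, the replicate block and leaving out replicate 1 or 3 of either L-428 group (limma, adjusted p up to 0.202). In L-428 CD59 fell by 0.42 (limma, adjusted p = 0.00738), which was lost after median centring and without replicate 1 of L-428 tGFP/EBF1 (adjusted p up to 0.0542). It rose by 0.57 in L-1236 (limma, adjusted p = 0.000227). RFTN2, the second raftlin, was at 0.050 and 0.065 and did not pass.

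In the kinase family PRKCB passed in L-428 and PRKCD, PRKCA and PRKD1 in L-1236. The list held 12 other genes, among them PKN2 and PKN3 of the protein kinase N group. Of these 12, PRKCB fell by 0.60 in L-428 cells (limma, adjusted p = 9.77e-06). In L-1236 PRKCD rose by 0.80 (limma, adjusted p = 3.66e-07), PRKCA fell by 0.55 (limma, adjusted p = 8.73e-05) and PRKD1 fell by 0.25 (limma, adjusted p = 0.0185). The PRKD1 call was lost without replicate 2 or 3 of L-1236 tGFP and without replicate 1 or 2 of L-1236 tGFP/EBF1 (adjusted p up to 0.0956). The test of the difference between the lines is given for these genes in the closing section. Of 17 diacylglycerol sensors and kinases none passed in L-428 (limma; 1 had an unadjusted p under 0.05). In L-1236 the phospholipase PLCG1, which makes diacylglycerol, rose by 0.67 (limma, adjusted p = 2.85e-06) and DGKH by 0.30 (limma, adjusted p = 0.0133; 0.0714 at most, without replicate 2 of either L-1236 group). For NSMF, 0 of 19 NMDA receptor, messenger and GnRH neuron genes passed in L-428 (limma; 1 had an unadjusted p under 0.05), and MAPK3, the ERK1 kinase known to phosphorylate it, fell by 0.35 in L-1236 (limma, adjusted p = 0.00444).

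The sarcomere genes beside MYBPC2 gave few calls. Of 33 myosin-binding and sarcomere genes none passed in L-428 (limma; 3 had an unadjusted p under 0.05), with MYBPC1 at -0.028 and MYBPH at -0.11. In L-1236 MYBPHL (0.29; limma, adjusted p = 0.0172) and MYOZ2 (0.23; limma, adjusted p = 0.0233) rose. Both calls were lost when single L-1236 arrays were left out, for both genes replicate 2 or 3 of L-1236 tGFP or replicate 3 of L-1236 tGFP/EBF1, for MYBPHL also its EBF1 replicate 1, and for MYOZ2 also control replicate 1 or EBF1 replicate 2 (limma, adjusted p up to 0.0964 and 0.087). In every group 31 of the 33 lay below 7.87, and so did all 9 skeletal muscle markers, none of which passed in any comparison (limma; 0 had an unadjusted p under 0.05). The mean over the muscle markers was 6.72 to 6.88 on L-428 control arrays and 6.75 to 6.81 on L-428 EBF1 arrays.

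**Figure D3:**
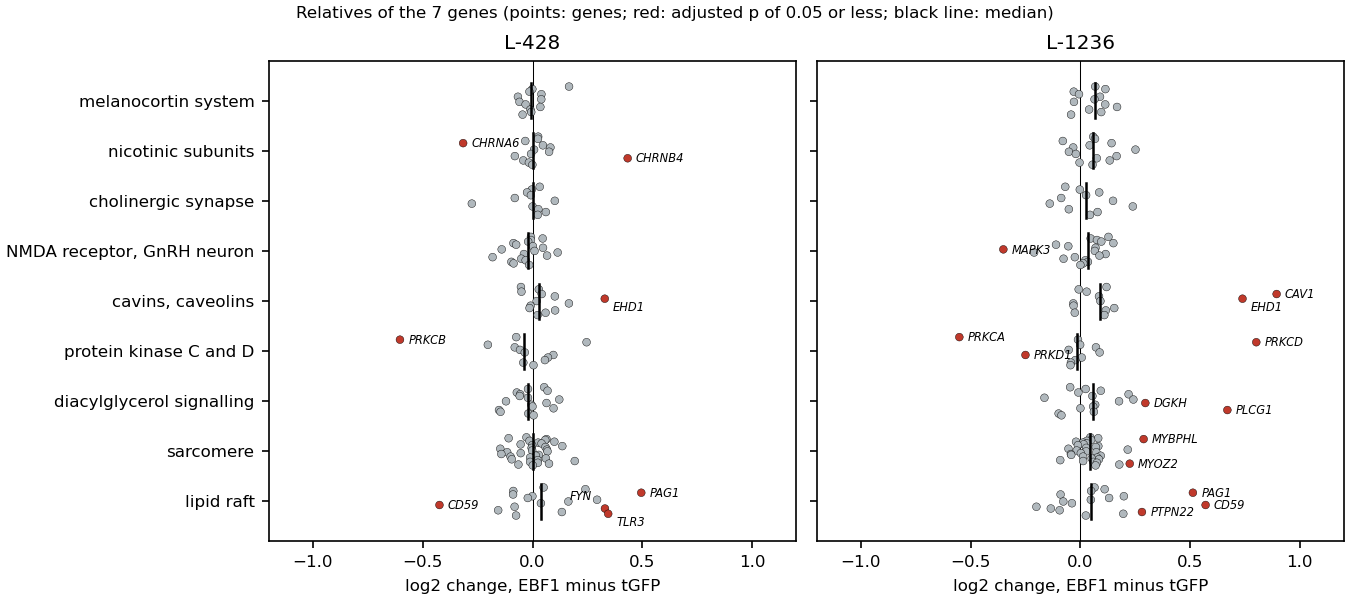
Log2 change, EBF1 minus tGFP (x axis), of the measured relatives of the 7 genes in 9 lists (y axis; points are genes, red where the adjusted p was 0.05 or less, black lines are list medians), in L-428 and in L-1236. List medians lie close to 0 in both lines, and the genes that passed are single ones such as PRKCB (-0.60) in L-428 and CAV1 (0.89) and PRKCD (0.80) in L-1236.

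Markers of other cells moved in few cases. Of 8 neuron markers, STMN2 fell by 0.51 in L-428 cells (limma, adjusted p = 0.000215) and SNAP25 fell by 0.90 in L-1236 (limma, adjusted p = 1.66e-05), and 6 of the 8 lay below 7.87 in every group. PECAM1, 1 of 9 fibroblast and endothelial markers, was up by 0.72 in L-428 cells (limma, adjusted p = 5.52e-06), and 7 of the 9 lay below 7.87 in every group. CD3D (0.32; limma, adjusted p = 0.00271) was the 1 of 7 T-cell markers and CSF1R (0.36; limma, adjusted p = 0.00107) the 1 of 6 myeloid markers that rose in L-1236, and all 13 lay below 7.87 in every group. Their part in the values of the 7 genes was not tested.

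Each of the 7 genes lies on a chromosome of its own (2, 3, 6, 9, 11, 14 and 19), and neighbours were compared to see whether they moved along. Of 42 neighbours, the 3 nearest measured genes on either side by RefSeq gene order, 1 rose and 0 fell in L-428, or 2.38% against 4.34% of all rows. That gene was SPIB, a B-cell transcription factor of the ETS family and the nearest measured gene before MYBPC2 on chromosome 19. SPIB rose by 0.39 (limma, adjusted p = 0.00382), from 8.04 to 8.44, beside MYBPC2 at -1.88. On the other side of MYBPC2, GARIN5A was at 0.098 (limma, adjusted p = 0.577). The nearest neighbours of the other 6 genes were between -0.18 (SLC38A6, before PRKCH) and 0.15 (OXNAD1, before RFTN1) in L-428 and did not pass.

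In L-1236, 4 neighbours rose and 2 fell, or 14.3% against 9.64% of all rows. Of the risers, 3 lay in a row after CAVIN3, the acid sphingomyelinase gene SMPD1 (0.30; limma, adjusted p = 0.0115), APBB1 (0.24; limma, adjusted p = 0.0402) and HPX, the gene of hemopexin (0.33; limma, adjusted p = 0.00333), where CAVIN3 differed by 0.14. The HPX call held under all 23 alternatives. SMPD1 was lost under 3 of them, after median centring and without replicate 1 of L-1236 tGFP or replicate 3 of L-1236 tGFP/EBF1 (adjusted p up to 0.0798), and APBB1 under 10, including any 1 EBF1 array of L-1236 left out (adjusted p up to 0.242). Beside PRKCH, SLC38A6 rose by 0.28 (limma, adjusted p = 0.0421; lost under 11 alternatives, among them any 1 control array of L-1236 left out). HIF1A, the hypoxia factor, fell there by 0.38 (limma, adjusted p = 0.00474). DPH7 near NSMF fell by 0.21 (limma, adjusted p = 0.0272), a call lost without any 1 of the 6 L-1236 arrays (adjusted p up to 0.111).

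**Figure D4:**
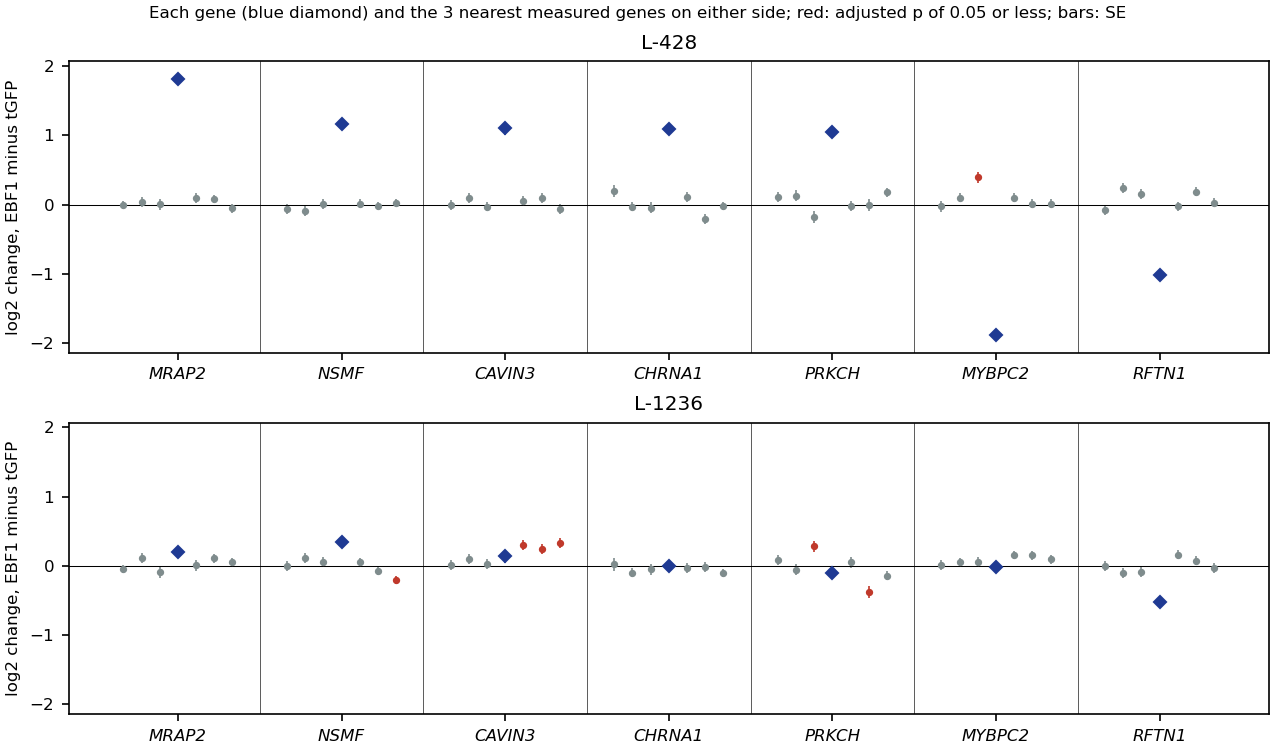
Log2 change, EBF1 minus tGFP (y axis, bars are SE), of each of the 7 genes (blue diamonds) and of the 3 nearest measured genes on either side in chromosomal order (x axis), in L-428 and L-1236. In L-428 only SPIB (0.39), next to MYBPC2 (-1.88), passed, and the other neighbours lie between -0.21 (ATF2) and 0.24 (DPH3). In L-1236 the 6 red neighbours lie between -0.38 (HIF1A) and 0.33 (HPX).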

How the data were processed

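The 12 whole-transcript arrays were analysed, 3 in each of 4 groups. Per the labels, amplified biotin-labelled RNA of sorted cells was hybridised to Affymetrix arrays. The deposited table holds log2 signal values. The log base is inferred from values up to about 14, and the summarization and normalization by the authors are not stated in those sources. Gene names come from the platform annotation. The table has 32321 rows, 19158 with 1 symbol, 1388 with several and 11775 without.

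Rows with a symbol (20546) were fitted without a filter in limma 3.58.1 (R 4.3.3; lmFit, eBayes, 8 residual and 9.98 prior degrees of freedom) as 4 group means, as in the design text's comparisons. P-values were adjusted by Benjamini-Hochberg within a contrast, and "rose" or "fell" means an adjusted p of 0.05 or less. A call means the same unless 2-fold, which the design text also asks for, is named. P-values set a difference of means against the spread between arrays within groups, pooled over the 4 groups and moderated by the other rows. They say nothing of the spread between tumours, and the 3 arrays per group limit the precision. A gene with several rows is given by the brightest. Intervals are 95%.

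The members and lists were chosen with earlier results of these data known. Named were the 7 genes, EBF1, up to 4 passing genes per list (1 or 2 otherwise), nearest and passing neighbours, the 3 most alike rows, and rows at the 2-fold limit. Family subunits named beside them (MC4R, CHRNB1, CHRND, CHRNE, CHRNG, CAVIN1, CAVIN2, MYBPC1, MYBPH and RFTN2) were chosen after their values were seen. The fit was checked on simulated data. Alternatives were scaling, a filter, row sets, variance models, array weights, a replicate block and left-out arrays. Gene IDs of 19128 rows matched RefSeq (GRCh38.p14). Figures used matplotlib 3.10.9.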

Additional observations from a re-analysis of the deposited data

Results flagged for a closer look

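The effect of EBF1 differed between the lines for 20 of the 53 genes named beside the 7, by the test of the difference itself (limma, adjusted over all rows), which 5.16% of all rows passed. Many of the 53 were named because they passed in 1 of the lines, a choice that favours such a difference, so the count is not set against that share. The values are L-428 minus L-1236, and the 7 genes are left out because the L-428 effect chose them.

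Among the relatives, the difference was 0.36 for CHRNB4 (limma, adjusted p = 0.0376), -0.46 for CHRNA6 (limma, adjusted p = 0.00717), -0.41 for EHD1 (limma, adjusted p = 0.0184) and -0.85 for CAV1 (limma, adjusted p = 0.000468). In the kinase family it was -0.56 for PRKCD (limma, adjusted p = 0.00222), -0.59 for PRKCB (limma, adjusted p = 0.000573), 0.48 for PRKCA (limma, adjusted p = 0.014) and 0.34 for PRKD1 (limma, adjusted p = 0.0366). PLCG1 gave -0.82 (limma, adjusted p = 4.51e-05), CD59 -0.99 (limma, adjusted p = 7.34e-05) and FYN 0.46 (limma, adjusted p = 0.00548). CD59 fell in L-428 and rose in L-1236.

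Among the markers it was -0.50 for CCL22 (limma, adjusted p = 0.00324), -0.47 for TNFRSF8 (limma, adjusted p = 0.00768), -0.95 for CD79A (limma, adjusted p = 1.79e-06) and 0.42 for CD22 (limma, adjusted p = 0.0232). SNAP25 gave 1.06 (limma, adjusted p = 0.000351), STMN2 -0.66 (limma, adjusted p = 0.000609) and PECAM1 0.90 (limma, adjusted p = 3.22e-05). Of the neighbours, HPX beside CAVIN3 gave -0.39 (limma, adjusted p = 0.0206) and SLC38A6 beside PRKCH -0.46 (limma, adjusted p = 0.0292).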

How the results depend on the processing

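For the 7 genes, 161 L-428 values kept direction and moved by less than the larger of their groups' SDs (NSMF was at 1.05 to 1.24). That contrast chose the genes, so this is a description, and PRKCH and RFTN1 crossed the 2-fold limit as given above. On the adjusted p, 153 L-1236 values and 149 control values kept their side of the threshold. The sign changed in L-1236 for CHRNA1 (-0.048 to 0.045) and MYBPC2 (-0.072 to 0.042), which passed under no alternative. In L-1236, MRAP2 passed after quantile normalization (0.19), with array weights (0.26; 0.25 gene by gene, added after seeing the data because the default estimate stopped before converging) and without both arrays of narrower spread (0.22). It was 0.17 to 0.22 without single arrays. PRKCH passed with array weights only (-0.23, and -0.20 gene by gene; limma, adjusted p = 0.000221 and 0.0106; up to 0.835 otherwise). The control difference of MRAP2 lost its call when every row was tested (0.17), with array weights (0.14 and 0.14), with the replicate block (0.17; limma, adjusted p = 0.0605) and without both arrays (0.14). It was 0.14 to 0.19 without single arrays.

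Counts over all rows depend on scaling, and the causes were not tested. Rows higher and lower with EBF1 in L-428 by adjusted p were 538 and 354. Quantile normalization gave 964 and 650, median centring 345 and 153. They were 1093 and 1564 with array weights (1090 and 1502 gene by gene), 270 and 164 at an adjusted p of 0.01, and 1281 lower without both arrays. Without single arrays they were 285 to 666 and 178 to 843. At 2-fold 4 were lower, 2 after quantile normalization and 2 to 5 without single arrays. In L-1236 they were 759 and 1222. They were 1445 higher after quantile normalization, 792 lower after median centring, 4176 and 4574 with array weights (2232 and 2944 gene by gene), 469 and 662 at an adjusted p of 0.01, and 1222 higher without both arrays. Without single arrays, 771 to 1795 were lower. In the lists, lipid raft genes past the threshold were 4 in L-428 (2 to 7 under the alternatives) and 3 in L-1236 (2 to 10), sarcomere genes in L-1236 were 2 (0 to 11), diacylglycerol genes there 2 (2 to 11), and skeletal muscle markers between controls 0 (up to 4).

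The labels give the same replicate numbers in every group, but same-numbered arrays showed no common deviation as a set (r = -0.47 to 0.28 over 18 pairs). Arrays with different numbers spread as widely (r = -0.48 to 0.50 over 36 pairs). These values therefore cannot decide whether the numbers pair the samples. With the replicate block 437 rows were higher and 294 lower in L-428, and no other call of the 7 genes changed.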

Other observations

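Between the control cells, the relatives of the 7 genes differed about as often as other rows, with 68 of 148 past the adjusted p (45.9% against 47.9%). The protein kinase C and D list stood at 11 of 12, 8 higher and 3 lower in L-428. The protein kinase N genes PKN2 (0.39) and PKN3 (0.26) are in this list and among the 8. PRKCB (1.57), PRKCQ (1.38) and PRKCI (1.16) were higher there and PRKD1 (-1.38) lower (limma, adjusted p = 1.71e-13, 4.78e-12, 7.67e-11 and 1.48e-12). RASGRP3, a diacylglycerol-activated exchange factor, was higher in L-428 by 3.23 (limma, adjusted p = 2.48e-16). POMC, the precursor of the melanocortin peptides, was higher by 1.13 (limma, adjusted p = 1.65e-10). These genes were picked for their size after the values were seen.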
